A study of Mus musculus with 14 samples.

Results

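Day 7 and day 4 colonies of mouse embryonic stem (ES) cells grown with retinoic acid (RA) were compared on 4 of the series' 14 2-colour arrays, chosen by their sample titles. The 2 day 7 arrays held RNA of the male line ES MC1, given as strain 129SvEv-Tac, and the 2 day 4 arrays held RNA of the male line MC1-ZE16, given as strain 129/Sv. Both received 50 nM RA in medium with LIF, the cytokine that sustains self-renewal of these cells. The series' design text says that colonies of pluripotent cells were collected by hand in both cases, whereas the day 7 extraction protocol describes lysis of a whole culture well, so the labels leave the day 7 material unsettled. The other 10 arrays, all of line MC1-ZE3 (129/Sv), held standard day 3 cultures, control day 3 cultures, cultures treated for 48 h with 50 nM RA or with LY294002, and, under the name passage 10, cells that went through 10 passages without RA after a first 7 days in it, each group on 2 arrays. Since the labels do not describe the replicates as separate cultures, the p-values rest on a spread that may be technical. Day, line, slide and scan day differed together between the 2 kinds of colony and cannot be told apart.

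RA is the active derivative of vitamin A and binds nuclear receptors that sit on DNA and control transcription of nearby genes. In ES cells it is best known as a differentiation signal, with the anterior Hox genes among its classical targets, while LIF opposes differentiation. LY294002 inhibits phosphoinositide 3-kinase, a signalling enzyme that acts alongside LIF in self-renewal.

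Each probe is a 60-base DNA oligonucleotide without a gene name in the files used here, so probes are given by identifier and sequence, and the identity of the ES cells could not be checked on their marker genes. The sequences printed are those on which the results below turn. In the first pair, both high in day 7 colonies, the capitals mark 14 bases that end 1 probe and start the other; neither has a genomic position here.
Z00057247-1: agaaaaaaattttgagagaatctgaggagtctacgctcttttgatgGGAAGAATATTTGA
Z00038105-1: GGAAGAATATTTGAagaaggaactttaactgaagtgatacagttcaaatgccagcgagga
The second pair were high in day 4 colonies and share the 45 bases in capitals.
Z00074574-1: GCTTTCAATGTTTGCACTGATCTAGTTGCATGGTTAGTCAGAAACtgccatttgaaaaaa
Z00002490-1: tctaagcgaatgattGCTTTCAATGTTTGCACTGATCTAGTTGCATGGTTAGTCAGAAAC
The remaining probes of this set had the largest differences, or an arrangement across the groups that is described below. Capitals mark the letters AATAAA, the usual signal for polyadenylation, in Z00064853-1. In Z00034851-1 they mark a 20-base stretch that recurs along the probe after a further g.
Z00024925-1: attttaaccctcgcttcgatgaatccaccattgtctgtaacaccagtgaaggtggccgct
Z00064853-1: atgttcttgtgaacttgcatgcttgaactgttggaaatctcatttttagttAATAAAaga
Z00030484-1: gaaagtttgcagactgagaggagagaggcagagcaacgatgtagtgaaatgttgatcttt
Z00065931-1: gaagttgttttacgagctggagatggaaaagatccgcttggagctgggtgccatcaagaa
Z00034851-1: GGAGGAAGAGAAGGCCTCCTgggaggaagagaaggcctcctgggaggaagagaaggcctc

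Levels are given as log2 of sample (Cy3) over reference (Cy5), where the reference combined a pool of RNA from 11 cell lines with RNA of ES cells. Replicates of 1 kind of colony lay closer to each other than to the other kind: across 31053 tested probes, which are not independent replicates, r was 0.973 between the day 7 arrays, 0.993 between the day 4 arrays and 0.805 to 0.816 between a day 7 and a day 4 array. The day 7 arrays differed from each other by a median of 0.12 log2 per probe and the day 4 arrays by 0.07. In Cy3, 66.1% and 66.3% of probes were well above background on the day 7 arrays, against 58.5% on both day 4 arrays, and the number of arrays limits the precision. Over all 14 arrays this share ran from 56.2% to 75.1%, with 1 to 24 outlier spots per array.

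Many of the tested probes differed between the colonies, most of them by less than 2-fold. Of 31053 tested probes, 16402 passed an adjusted p of 0.05 in limma (52.8%), 8515 higher in day 7 (27.4%) and 7887 lower (25.4%). At least 2-fold differences were found for 2163 probes (6.97%), of which 1353 were higher in day 7 colonies (4.36%) and 810 were higher in day 4 colonies (2.61%); these are called day 7-high and day 4-high probes below. Differences of at least 4-fold were seen for 205 day 7-high and 67 day 4-high probes, and of at least 8-fold for 31 and 5.

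The balance between the directions depended on the scaling. Day 7-high probes made up 62.6% of the 2-fold differences here, 78.6% with Agilent's processed signals centred on the median, 85.8% with median centring in place of loess and 51.5% with the Cy3 channel alone. Of all calls, the higher share was 51.9% here, 72.5% with the processed signals, which moved the median of all probes by 0.26 log2, 75.5% with median centring and 49.0% with Cy3 alone, where lower calls were the majority. The lower brightness of the day 4 arrays went along with the groups. Among the 23588 probes above background on all 4 arrays, 1231 day 7-high and 795 day 4-high probes remained, and on every one of these 2026 the day 7 and day 4 arrays did not overlap; 18787 of the 23588 did not overlap either. The part of brightness in the split of directions was not tested.

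**Figure D1:**
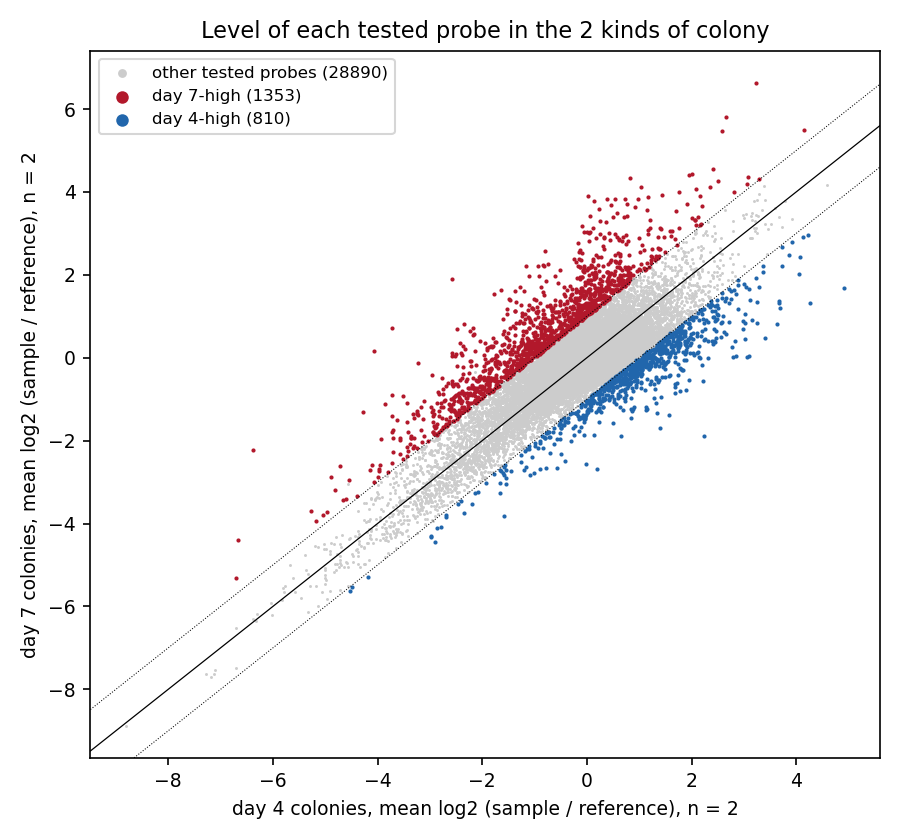
Mean log2 level over the reference in day 4 colonies (x axis) and day 7 colonies (y axis), 1 point per tested probe and 2 arrays per mean, with the solid line at equal levels and dotted lines at 2-fold. The 1353 day 7-high probes lie above the upper dotted line and the 810 day 4-high probes below the lower one.

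Relative to the reference, the differing probes crossed from one side to the other in many cases. The median level of the day 7-high probes was 0.68 in day 7 and -0.82 in day 4 colonies, and 529 of them (39.1%) were above the reference on both day 7 arrays and below it on both day 4 arrays. The day 4-high probes had medians of -0.28 in day 7 and 1.03 in day 4 colonies, and 354 (43.7%) crossed in the opposite sense. Over all tested probes 8.57% and 7.24% crossed in these directions. Since the differences themselves chose the probes, these shares are a description.

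The largest day 7-high difference was that of Z00024925-1, a probe high in day 7 colonies alone. Its levels were 1.71 and 2.06 on the day 7 arrays and -2.58 and -2.57 on the day 4 arrays. The other 10 arrays lay between -3.54 and -2.08, so both day 7 arrays stood above all the rest. The difference was 4.46 log2 (SE 0.12; 22.0-fold; limma adjusted p = 4.16e-11).

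Probe Z00064853-1, nearly as large, was set apart by the day 4 colonies instead. It measured 0.85 and 0.57 on the day 7 arrays and -3.79 and -3.65 on the day 4 arrays. The other groups had means from -1.02 (passage 10) to 1.33 (control day 3), all above the day 4 colonies. The difference was 4.43 log2 (SE 0.12; limma adjusted p = 5.96e-11). A similar arrangement was seen for Z00026567-1, at 2.94 and 3.43 in day 7, -0.10 on both day 4 arrays, and group means of 2.19 to 3.38 elsewhere.

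Probe Z00030484-1 was high in day 7 colonies and after 48 h of RA. Its levels were 0.40 and -0.09 on the day 7 arrays and -4.05 and -4.09 on the day 4 arrays. The mean after 48 h of RA was -0.38, against -3.12 in the control day 3 cultures, a difference of 2.73 log2 (limma adjusted p = 1.15e-08) measured on arrays whose levels did not enter the colony difference. The LY294002 culture, at -1.80, was also above the control, by 1.31 log2 (limma adjusted p = 3.01e-06). The day 4 colonies, also grown in RA, had the lowest level of all groups.

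The probes Z00057247-1 and Z00038105-1, which share these 14 bases, gave the same arrangement. Z00057247-1 measured 4.30 and 4.38 in day 7 and 0.82 and 0.83 in day 4 colonies, a difference of 3.52 log2 (SE 0.07; limma adjusted p = 6.47e-12). Its means were 4.44 in control day 3 cultures, 5.97 after RA and -0.02 after LY294002, and 0.15 in the standard day 3 cultures. Z00038105-1, chosen after its values were seen, measured 3.66 and 3.71 in day 7 and 0.44 and 0.50 in day 4 colonies, with means of 4.00, 5.55 and -0.11 in the control, RA and LY294002 cultures. For both probes the untreated control culture lay above the day 7 colonies and the untreated standard culture below the day 4 colonies. The LY294002 and control cultures differed by -4.46 log2 for Z00057247-1 (limma adjusted p = 4.66e-13), and the control and standard cultures by 4.29 log2 (limma adjusted p = 1.67e-12).

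Among the other large day 7-high probes, Z00000270-1 had the highest level, 6.60 and 6.66 in day 7 and 3.28 and 3.18 in day 4 colonies. Its next highest mean, 3.65, was that of the RA culture, and the standard, passage 10 and LY294002 cultures were at -0.84, -0.79 and -1.02. Z00010202-1 is uncertain in size, because its day 7 arrays were 3.35 log2 apart, at -3.91 and -0.56, against -6.41 and -6.34 in day 4 colonies (SE 0.68). At 11 of the 15 largest day 7-high probes both day 7 arrays lay above all 12 other arrays. Since the 15 were chosen for a large difference without overlap, and all tested probes were not counted, this is a description. Z00006588-1 measured 3.86 and 3.93 in day 7 and 0.15 and -0.10 in day 4 colonies, with 1.45 and 1.63 in the control and RA cultures. Z00026697-1 measured 4.09 and 3.54 against 0.36 and 0.40, and Z00066068-1 measured 3.70 and 3.46 against 0.22 and 0.23. Z00007554-1, at 2.52 and 2.63 against -0.79 and -0.81, had its next highest mean, 0.33, after RA.

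Among these probes the RA and control cultures of line MC1-ZE3 differed in both directions. Z00062597-1 measured 2.01 and 1.06 in day 7 and -1.76 and -1.77 in day 4 colonies, and RA minus control was 2.05 log2 (limma adjusted p = 6.16e-06). Z00025416-1 measured 3.93 and 3.75 against 0.59 and 0.51, and RA minus control was -1.13 log2 (limma adjusted p = 9.47e-08). Z00026066-1, at 2.19 and 2.23 in day 7 and -1.21 and -1.13 in day 4 colonies, was nearly as high in the standard and passage 10 cultures, at 1.89 and 1.78, and lowest after LY294002, at -1.93. The 15 largest day 7-high probes spanned 9.60-fold to 22.0-fold, and 14 of them had a day 7 mean above the reference.

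The largest day 4-high difference was that of Z00065931-1, a probe low in day 7 colonies alone. Its levels were -1.94 and -1.85 on the day 7 arrays and 2.26 and 2.21 on the day 4 arrays. The remaining 5 groups had means from 0.53 (LY294002) to 1.71 (standard day 3), so the day 7 arrays stood below all others. The difference was -4.13 log2 (SE 0.07; 17.5-fold; limma adjusted p = 2.27e-12).

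The overlapping probes Z00074574-1 and Z00002490-1 were highest in day 4 colonies and lowest after LY294002. Z00074574-1 measured 0.08 and -0.05 in day 7 and 3.06 and 3.07 in day 4 colonies, and Z00002490-1 measured 0.09 and 0.00 against 3.06 and 3.13. Both differed by -3.05 log2. After LY294002 their means were -2.76 and -2.55, and the LY294002 minus control differences were -2.79 and -2.64 log2.

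The LY294002 culture was the lowest group at 9 of the 15 largest day 4-high probes, and at 5 of the 15 largest day 7-high probes. The count over all tested probes was not made. Z00037781-1 measured -1.53 and -1.24 in day 7 and 1.57 and 1.58 in day 4 colonies, and -2.62 after LY294002. Z00035357-1 measured -2.74 and -2.62 against 0.12 and 0.29, and -3.19 after LY294002. Z00074186-1 measured -1.08 and -0.47 against 1.84 and 1.95, and -2.35 after LY294002, with the standard culture, at 2.10, above the day 4 colonies.

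At 4 of the 15, Z00065931-1 included, both day 7 arrays lay below all 12 other arrays, a count likewise made on chosen probes only. Z00022498-1 measured -1.70 and -1.68 in day 7 and 1.38 and 1.42 in day 4 colonies, with the control culture, at 1.62, the highest. Z00034917-1 measured -1.56 and -1.10 against 1.38 and 1.30, and Z00064776-1 measured -0.73 and -0.88 against 1.79 and 1.77.

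Probe Z00034851-1, made of a repeated unit, had its extremes in the day 4 and LY294002 cultures. It measured 1.5 and 1.14 in day 7 and 4.29 and 4.22 in day 4 colonies, 3.67 after RA and -1.92 after LY294002, with 1.70 to 2.27 in the remaining groups. The LY294002 culture lay nearer to the day 7 than to the day 4 colonies for 14 of the 15 largest day 4-high probes, and below the day 7 colonies for 10 of them. These 15 probes spanned 5.94-fold to 17.5-fold.

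**Figure D2:**
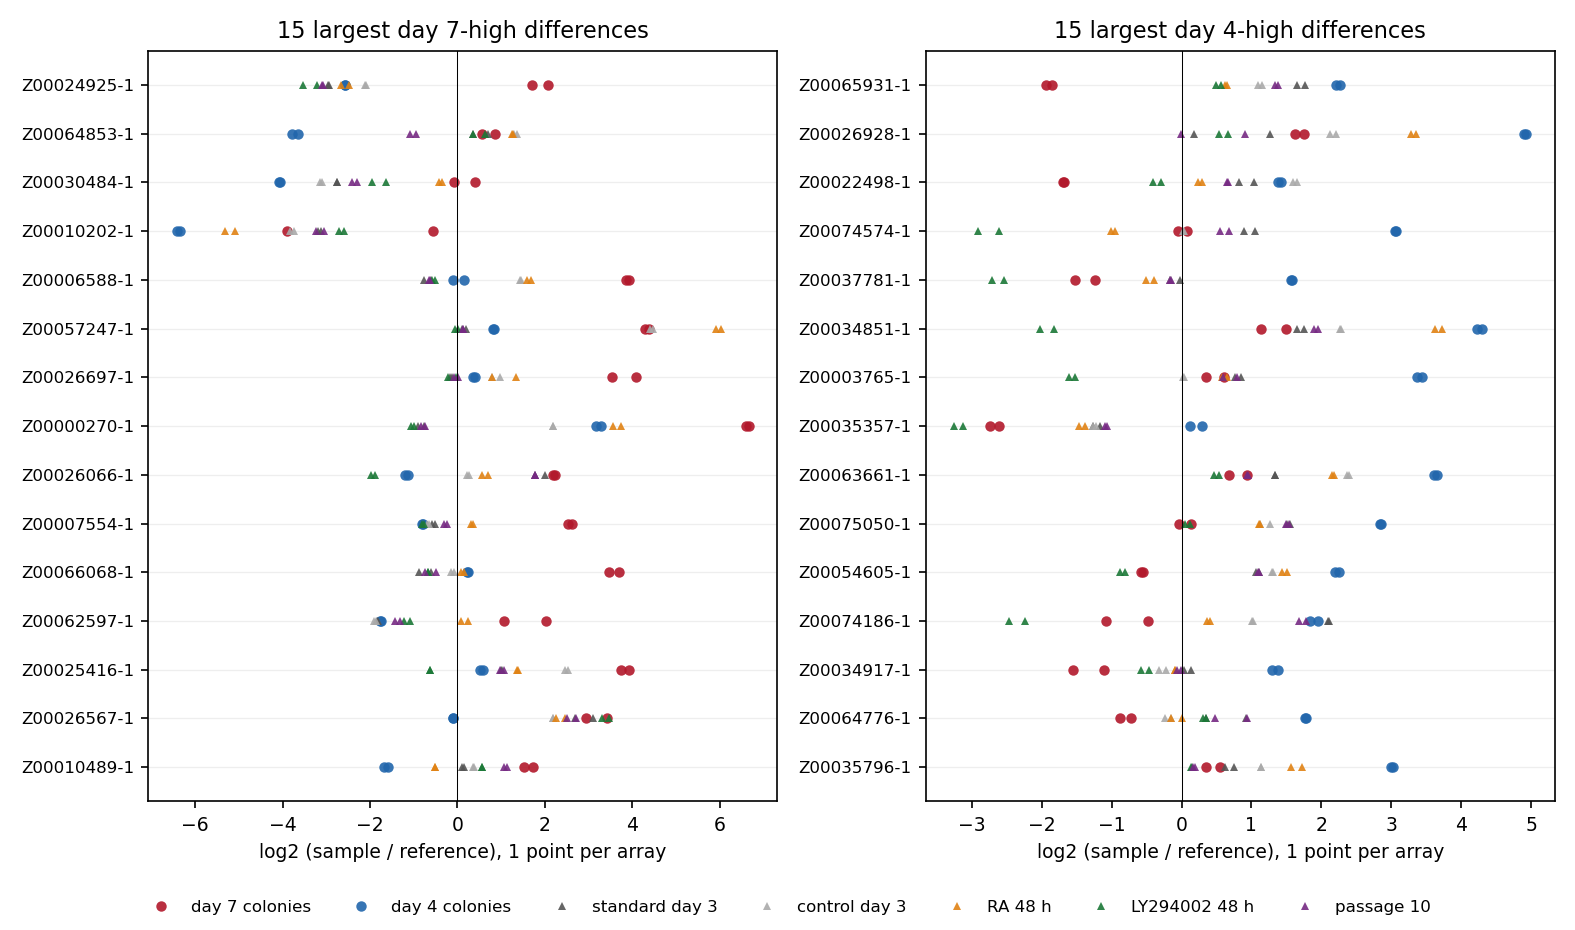
Levels (log2 of sample over reference) of the 15 largest day 7-high and the 15 largest day 4-high probes, 1 point per array, circles for the colonies and triangles for the other 5 groups. Day 7 arrays of Z00024925-1 lie to the right of all others, day 4 arrays of Z00064853-1 and day 7 arrays of Z00065931-1 to the left of all others.

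Probes that read overlapping sequence served as a check on single-probe readings within the arrays, and not on the difference between the colonies. Among the tested probes 1372 pairs shared at least 20 bases, and their day 7 minus day 4 differences lay a median of 0.08 log2 apart. In 103 pairs at least 1 probe was a day 7-high or day 4-high probe; 100 of these pairs had the same sign, 70 had both probes called in the same direction (44 day 7-high, 26 day 4-high), and none were called in opposite directions. In 4 of the 103 pairs the 2 differences lay over 1 log2 apart. Pairs of the same sign were not counted over all 1372.

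Some probes were measured in only 1 kind of colony. In Cy3, 2391 tested probes were well above background on both day 7 arrays and on neither day 4 array, against 124 in the reverse case, on arrays whose overall brightness differed in the same direction. For these the fold is a bound: the bright mean against the day 4 (or day 7) signal or the lowest signal well above background, whichever was higher, on Cy3 levels normalized between arrays and open to dye bias without dye swaps. On that Cy3 scale the bound was at least 2-fold for 83 and 7 probes that also had a limma adjusted p under 0.05. That p came from the fit of the ratios to the reference, and the Cy3 bound itself was not tested. The largest in Cy3 was Z00010470-1, at least 11.7-fold higher in day 7, followed by Z00037322-1 at least 9.78-fold and Z00077501-1 at least 7.20-fold. The fitted ratios to the reference differed by 10.2-fold, 12.4-fold and 6.62-fold, so neither the bounds nor their order carry over to the ratio scale. In the reverse direction Z00076469-1 was at least 3.01-fold and Z00065660-1 at least 2.72-fold higher in day 4 in Cy3, with 3.18-fold and 2.47-fold on the ratio scale.

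The levels of the other 10 arrays did not enter the day 7 minus day 4 differences, although these arrays shared in the estimate of the spread and in the filter on dim probes. With the spread estimated from the 4 colony arrays alone, 1343 of the 1353 day 7-high and all 810 day 4-high probes were called again. For each group, a probe was counted as nearer to day 7 where the group's mean lay closer to the day 7 than to the day 4 mean. For day 7-high probes, the standard day 3 and passage 10 cultures lay nearer to day 7 at 28.5% and 29.6% of probes, below the 43.0% and 43.3% among all tested probes with a positive difference. The control day 3 and LY294002 cultures did so at 49.2% and 38.6%, against 55.3% and 52.98%, and the RA culture at 62.5%, against 60.7%. At the 205 day 7-high probes of at least 4-fold these shares were lower, at 40.5% for the RA, 30.2% for the control and 20% for the LY294002 culture. For day 4-high probes the LY294002 culture lay nearer to day 7 at 81.4%, against 56.6% of all tested probes with a negative difference, and beyond the day 7 level at 47.0%, against 38.2%. The standard and passage 10 cultures lay nearer to day 7 at 54.3% and 54.4% of day 4-high probes, against 48.9% and 47.7%. The control and RA cultures did so at 67.0% and 68.8%, against 58.1% and 56.5%.

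**Figure D3:**
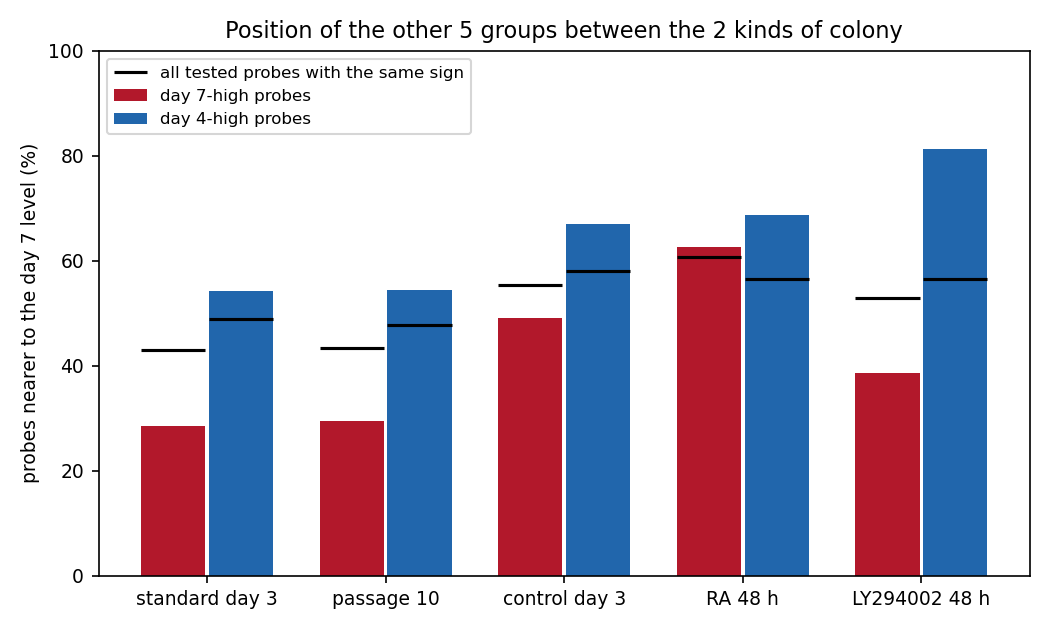
Share of day 7-high and day 4-high probes (y axis, percent) at which each of the other 5 groups (x axis) lay nearer to the day 7 than to the day 4 colonies, with black lines for all tested probes whose difference has the same sign. RA at 48 h is the highest of the day 7-high bars (62.5%) and LY294002 of the day 4-high bars (81.4%).

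The 5 groups were arranged in a few common ways. Colonies are said to stand alone where none of the 5 groups lay nearer to them than to the other kind, whatever the distance. For 368 day 7-high probes (27.2%, against 15.0% of all tested probes with that sign) none of the 5 groups lay nearer to day 7, so that the day 7 colonies stood alone, with a median of 1.41 against -0.38 to 0.04 in the other cultures. For 242 (17.9%, against 18.3%) all 5 did, and the day 4 colonies stood alone at -1.18. For 192 (14.2%, against 7.70%) the RA culture alone did: medians were 0.81 in day 7 colonies and 0.41 after 48 h of RA, and -0.98 to -0.50 in the other 5 groups, day 4 colonies included. Among the day 4-high probes the most common arrangement was the day 4 colonies alone, at 270 probes (33.3%, against 18.9%), with a median of 1.27 against -0.27 to 0.07 elsewhere. Only 51 day 4-high probes (6.30%, against 12.9%) had the day 7 colonies alone.

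**Figure D4:**
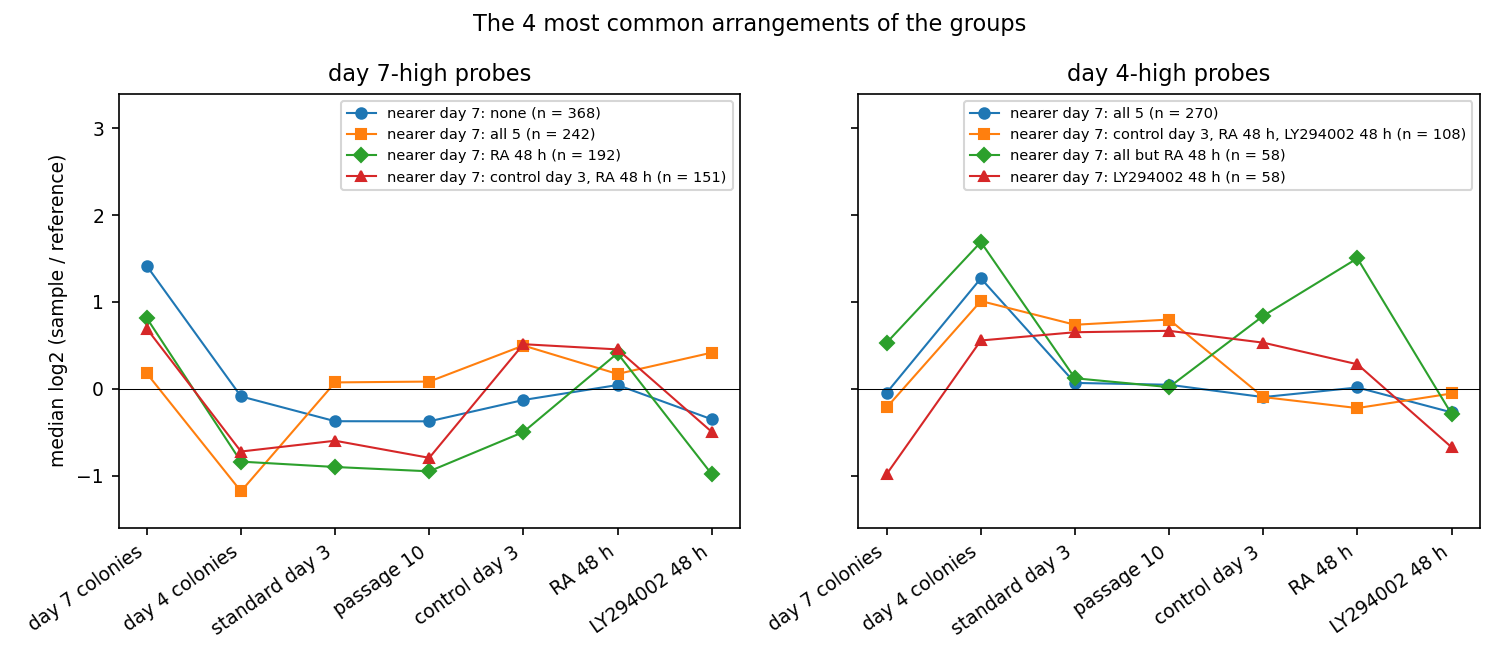
Median log2 level over the reference (y axis) in the 7 groups (x axis) for the 4 most common arrangements of day 7-high probes (left) and day 4-high probes (right), named by the groups that lay nearer to day 7. The left panel includes the 368 probes at which none of the other groups lay nearer to day 7 and the 192 at which only the RA culture did. The right panel includes the 270 probes at which all of them lay nearer to day 7.

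Differences between treated and control cultures of line MC1-ZE3, measured on other arrays, were then read at the same probes. After 48 h of RA, 179 day 7-high probes were at least 2-fold above the control culture (13.2% of them). They made up 21.3% of the 840 probes called in that direction. Another 39 (2.88%) were at least 2-fold below it. Of all tested probes 2.71% and 0.895% were called in these directions. Among tested probes above background on all 4 colony arrays these shares were 3.21% and 1.06%. The day 7-high and day 4-high sets were not cut to such probes, of which they held 1231 and 795. The RA culture was at least 2-fold above the control at 44 (5.43%) and below it at 18 (2.22%) of the day 4-high probes. The LY294002 culture was at least 2-fold below the control at 232 day 7-high probes (17.1%) and 185 day 4-high probes (22.8%). Of all tested probes 5.74% were called in that direction. It was above the control at 47 (3.47%) and 27 (3.33%), where 1.42% of all tested probes were. Among probes above background on all 4 colony arrays 7.14% were lower and 1.75% higher in the LY294002 culture. The LY294002 and control arrays lay on different slides, so treatment and slide cannot be told apart there. RA and control arrays shared a slide.

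The 2 untreated cultures differed at these probes as well. The control culture was at least 2-fold above the standard culture at 225 day 7-high probes (16.6%, against 3.75% of all tested) and below it at 15 (1.11%, against 1.44%). For day 4-high probes the counts were 37 above (4.57%) and 80 below (9.88%). Among tested probes above background on all 4 colony arrays 4.6% were above and 1.73% below, so the 4.57% lay near that share. The control and standard cultures lay on different slides and scan days. Passage 10 and standard cultures differed at 3 day 7-high probes upward and 5 downward, and at 0 and 5 day 4-high probes, where 15 probes were called in each direction over the array (0.0483% each). Same-numbered passage 10 and standard arrays shared a slide, and the fit did not pair them.

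A few probes could be placed in the genome by an exact match of all 60 bases to RefSeq windows around gene starts (GRCm38.p6; 250 bases before to 50 after the start). This placed 259 probes at 1 position, 206 of them tested, and 79 of these passed the adjusted p (38.4%, against 52.8% of all tested probes). Of the 206, 2 were day 7-high and 2 day 4-high (0.971% each, against 4.36% and 2.61%). The 4 are printed because they alone among the differing probes have a genomic position here. Exons and introns are not given in the tables used.
Z00070363-1: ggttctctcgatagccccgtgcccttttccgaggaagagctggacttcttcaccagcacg
Z00056199-1: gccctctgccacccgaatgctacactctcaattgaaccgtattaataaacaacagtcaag
Z00070705-1: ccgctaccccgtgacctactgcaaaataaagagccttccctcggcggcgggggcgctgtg
Z00065962-1: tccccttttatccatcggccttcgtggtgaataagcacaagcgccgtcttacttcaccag

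Probe Z00070363-1, at chr11:96353540-96353599 on the plus strand, lies within the span of Hoxb2, a homeobox transcription factor of the developing hindbrain, and upstream of the start of the antisense gene Hoxb3os on the opposite strand. Its levels were 1.07 and 0.56 on the day 7 arrays and -0.25 and -0.33 on the day 4 arrays, and the groups did not overlap. The difference was 1.103 log2 (SE 0.12; limma adjusted p = 5.64e-06). It was under 2-fold with the Cy3 channel alone or without day 7 replicate 1 (0.94 and 0.85 log2), and passed the adjusted p in both. After 48 h of RA the probe was higher than in either kind of colony, at 2.62 and 2.66. The groups not in RA when collected had means of -1.51 (standard), -1.46 (control), -1.27 (LY294002) and -1.40 (passage 10), below both kinds of colony. RA and control cultures differed by 4.11 log2 (limma adjusted p = 3.31e-10), while passage 10 and standard cultures differed by 0.11 log2 (limma adjusted p = 0.709).

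At the other 3 placed probes RA and control cultures differed by 0.01, 0.18 and -0.0013 log2, in the order given here (limma adjusted p = 0.948, 0.165 and 0.993). Z00056199-1, at chr7:3665794-3665853 on the minus strand, which is the strand of Leng1 and Tmc4, whose spans both hold it, measured 0.37 and 0.74 in day 7 and -0.75 and -0.64 in day 4 colonies (1.25 log2; limma adjusted p = 2.87e-07). Z00070705-1, at chr14:52019729-52019788 on the plus strand, lies in the spans of Tmem253, which runs on that strand, and of the zinc finger gene Zfp219, which runs on the other. It measured 0.42 and 0.28 in day 7 and 1.75 and 1.81 in day 4 colonies (-1.43 log2; limma adjusted p = 7.79e-08). Z00065962-1, at chr14:105177447-105177506 on the plus strand, lies opposite the start of Rbm26, an RNA-binding protein gene, and measured -0.16 and -0.02 in day 7 and 1.02 and 0.90 in day 4 colonies (-1.05 log2; limma adjusted p = 4.27e-07). In Cy3 it was above background on 1 of the 2 day 7 arrays, and its difference was under 2-fold with median centring and without replicate 1 of either kind of colony (-0.89, -0.98 and -0.99 log2).

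Lists of pluripotency, retinoid, Hox, lineage and other genes could be reached only at 4 of their 467 symbols. The probe in the span of 1 of these 4, Hoxb2, passed both thresholds. The strand of Hoxb2 was not available here, so whether that probe reads its transcript was not checked. Probes in the spans of Stra6, a retinol transporter, and of Tal1, a blood transcription factor, differed by 0.17 log2 (limma adjusted p = 0.175) and -0.02 log2 (limma adjusted p = 0.887). The probe in the span of Pax7, a muscle and neural transcription factor, differed by -0.29 log2 (limma adjusted p = 0.0348), under 2-fold. These 3 probes also lie in the span of a second gene. The Stra6 and Tal1 probes lie on the strand opposite to these genes, which is the strand of Ccdc33 and of Gm33786. Their values are therefore not readings of Stra6 or Tal1 transcripts. The Pax7 probe lies on the strand of Pax7. No count over a list was therefore possible.

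The sequences of the differing probes had features that the comparison did not use. The median GC content was 41.7% for day 7-high, 45% for day 4-high and 45% for all tested probes. Day 7-high probes made up 5.54% of probes with at most 35% GC and 2.00% of probes above 55%, while day 4-high probes made up 2.57% and 1.68% of them. The letters AATAAA, searched on the probe's own strand, were in 112 day 7-high probes (8.28%), 110 day 4-high probes (13.6%) and 7.38% of all tested probes.

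**Figure D5:**
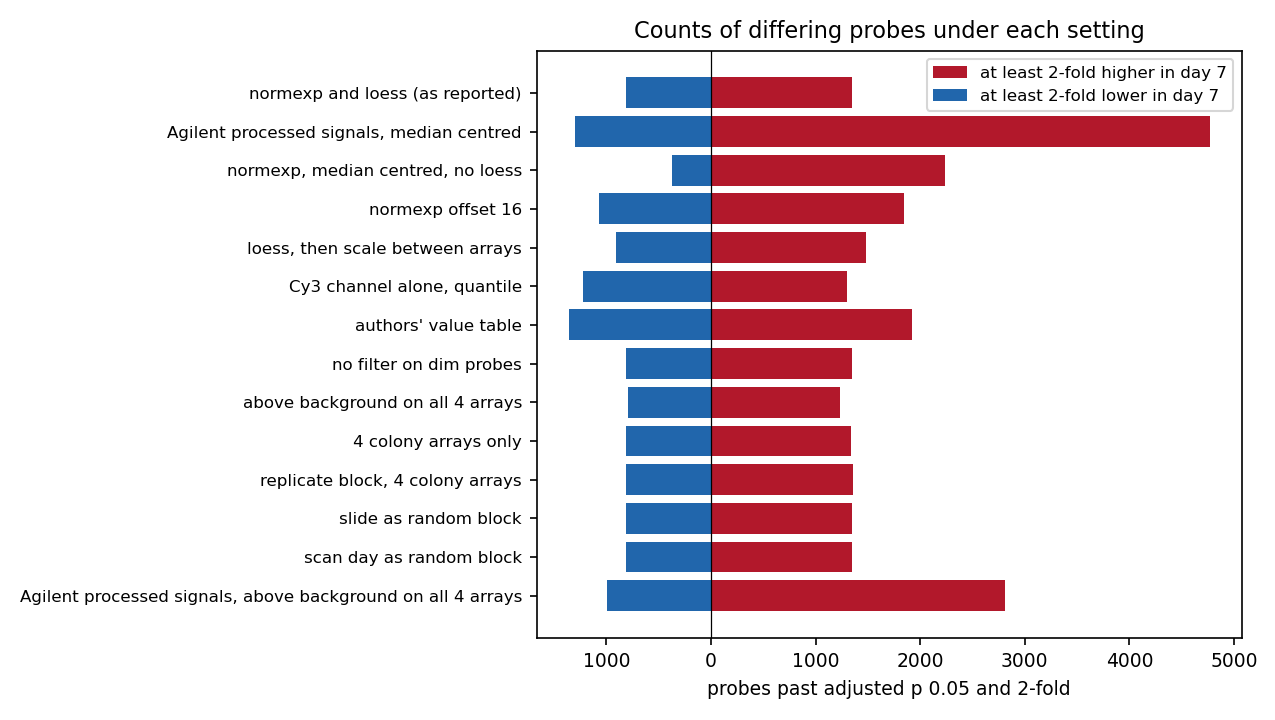
Number of probes at least 2-fold higher (right) and lower (left) in day 7 than in day 4 colonies with an adjusted p under 0.05 (x axis) under each setting (y axis). The reported setting gives 1353 and 810; Agilent's processed signals give 4769 and 1298, and median centring without loess gives 2234 and 371.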

How the data were processed

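Agilent 2-colour arrays carried sample RNA in Cy3 and reference RNA in Cy5 throughout, with no dye swap, per the labels. The deposited intensity values (mean signal and median background per spot) were written, without normalization, by version 9.5.1.1 of Agilent Feature Extraction, per the file headers. The deposited processed intensities had background subtracted and dyes normalized by it, as the file headers say. Deposited log10 ratios run as Cy5 over Cy3. A value table by the authors covers 25030 of 42006 probes with log10 values that follow the sample-over-reference ratio (r of 0.99927 or more); column medians were 2.24 to 2.32, and the origin of its centring stays unknown.

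In R 4.3.3 with limma 3.58.1 and statmod 1.5.0, intensities were corrected with normexp (offset 50) and loess, with control spots at weight 0. Control and outlier spots were dropped and repeated spots averaged. Tests covered the 31053 of 42006 probes that exceeded background clearly in Cy3 in both replicates of 1 group or more. Group means over 14 arrays (7 residual degrees of freedom) were fitted with lmFit and eBayes, two-sided, with Benjamini-Hochberg adjustment. Scripts were tested on simulated data. The probes named are the 15 largest differences per direction among probes above background on all 4 colony arrays without overlap, overlapping sequences counted once, the 5 largest bounds per direction and list genes past both thresholds; others are marked. Comparison, members and lists were chosen with earlier results of these data known. Same-numbered replicates are not tied by the labels.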

Additional observations from a re-analysis of the deposited data

How the results depend on the processing

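The 47 probes named or printed kept their direction and stayed past the adjusted p in the 764 alternative values computed for them. Of these values 7, at 4 probes, were under 2-fold: Z00034948-1 and Z00057528-1 (-0.94 log2 each) with median centring, Z00070363-1 in 2 settings (lowest 0.85 log2) and Z00065962-1 in 3 (smallest difference -0.89 log2). Of the counts and shares, 57 alternative values stayed within the limit set for them and 17 did not. With Agilent's processed signals, 4581 probes were lower and 4769 and 1298 were at least 2-fold higher and lower; restricted to probes above background on all 4 arrays, a choice made after seeing the data, 4485 were lower and 2807 at least 2-fold higher. With median centring and no loess, 2521 were lower, and 2234 and 371 differed 2-fold. The authors' value table, with 19083 tested probes, gave 5172 lower and 1361 at least 2-fold lower, and Cy3 alone gave 1223 at least 2-fold lower. Leaving out 1 colony array gave 7268 to 8151 higher and 6462 to 7716 lower probes, and 1317 to 1447 and 780 to 876 at 2-fold.

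The standard culture lay nearer to day 4 at 71.5% of day 7-high and 45.7% of day 4-high probes. These shares were 50.9% and 33.0% with the control culture in its place, 82.0% and 41.8% at 4-fold, and 75.9% and 37.9% with processed signals. The cause of these shifts was not tested.

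With the replicate number as a block, 7971 probes were higher and 7346 lower, and 1355 and 810 at 2-fold. Across the 31053 tested probes, the replicate deviations of day 7 and day 4 colonies, taken in the same numbering, had r = 0.113. Nothing in the labels pairs these arrays. Slide as a random block gave 1353 and 810 at 2-fold. Scan day, added after seeing the data, gave 1350 and 811. The 2 kinds of colony lay on different slides and scan days, so neither block can separate these from the colony difference. Dim signal limits the day 4 arrays more than the day 7 arrays.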
